A study of Mus musculus with 2 samples.

Results

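The 38 genes described here encode ligands, receptors, SMAD transducers, regulators and Id targets of the TGF-beta, activin and BMP pathways. They were chosen by gene symbol, with earlier results of these data known, and all 38 matched one of the 22225 protein-coding symbols of the mouse mm9 annotation. The study mapped where POU5F1 (OCT4), a pluripotency factor with a POU DNA-binding domain, sits on chromatin by immunoprecipitation and sequencing (ChIP-seq). The cells were E14TG2a.4, mouse embryonic stem cells of strain 129/Ola, male, from an embryo of 3.5 days. There was 1 group of 2 biological replicates, both of this 1 line and with no treatment named, so no conditions were compared. The deposited mm9 lists held 5515 peaks for the whole series, 1330 for replicate 1 and 6324 for replicate 2. On mm10, an irreproducible discovery rate (IDR) procedure, which keeps peaks that rank alike in repeated data, gave 3994 optimal and 2676 conservative peaks. Read depth is unknown, each list carries a single signal per peak and so no error, and the scale of the signal is not stated, so levels are not compared between lists. As a check of the label, 6 of 8 embryonic stem cell genes had a whole-series peak within 50 kb, led by Pou5f1 itself (signal 27.90, rank 4). Klf4 (54.2 kb) and Zfp42 (350 kb) lay farther from one. Of 5 feeder fibroblast genes, 1 had such a peak, Col3a1. The share of protein-coding genes outside the 38 members was 27.3%, so the fibroblast count tells little. A peak is not a measure of expression.

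Ligands of this family bind a pair of type I and type II receptor kinases. TGF-beta, activin and NODAL receptors phosphorylate SMAD2 and SMAD3, while BMP receptors phosphorylate SMAD1, SMAD5 and SMAD9. Either set joins SMAD4 and enters the nucleus, where partners such as FOXH1 direct it and co-repressors such as SKI, SKIL and TGIF1 restrain it. In mouse embryonic stem cells BMP signalling is known for inducing Id genes, which hold back differentiation in the presence of LIF, and NODAL and activin signalling is active as well.

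The sequences at the sites discussed are shown first, because they show how close each site comes to a POU5F1 element. Each is the plus strand of mm9, 100 bp on each side of the centre of a peak within 50 kb of 1 of the 6 genes with the highest peak signal, genes of 1 chromosome left aside, except that the Foxh1 window is cut to its 129 bp outside untranslated sequence. Capitals mark the best match to the composite element, in which SOX2 and POU5F1 sites adjoin, with up to 3 mismatches, the exact octamer ATGCAAAT on either strand, or the exact ESRRB site TCAAGGTCA on either strand.
Skil upstream site, chr3:30988352-30988552: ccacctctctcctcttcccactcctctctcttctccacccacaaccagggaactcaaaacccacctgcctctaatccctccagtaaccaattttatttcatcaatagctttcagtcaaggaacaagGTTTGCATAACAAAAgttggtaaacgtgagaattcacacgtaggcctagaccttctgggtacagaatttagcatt
Id3 downstream site, chr4:135702697-135702897: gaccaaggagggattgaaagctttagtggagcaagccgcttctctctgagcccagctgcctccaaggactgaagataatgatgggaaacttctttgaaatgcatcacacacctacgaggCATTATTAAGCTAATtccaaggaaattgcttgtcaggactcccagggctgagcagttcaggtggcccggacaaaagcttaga
Inhba downstream site, chr13:16124424-16124624: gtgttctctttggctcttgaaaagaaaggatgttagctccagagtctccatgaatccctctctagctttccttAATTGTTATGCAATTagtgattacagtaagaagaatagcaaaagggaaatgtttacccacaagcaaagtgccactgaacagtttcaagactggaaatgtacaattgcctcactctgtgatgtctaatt
Inhbb downstream site, chr1:121285307-121285507: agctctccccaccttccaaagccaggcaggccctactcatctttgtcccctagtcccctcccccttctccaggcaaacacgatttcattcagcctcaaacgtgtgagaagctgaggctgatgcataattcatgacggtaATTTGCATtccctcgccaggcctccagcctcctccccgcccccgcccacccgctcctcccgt
Inhbb upstream site, chr1:121350348-121350548: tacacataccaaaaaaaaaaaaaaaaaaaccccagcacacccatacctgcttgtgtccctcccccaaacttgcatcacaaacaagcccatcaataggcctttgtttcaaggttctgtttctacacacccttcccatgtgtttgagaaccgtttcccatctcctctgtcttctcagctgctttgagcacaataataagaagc
Tgif1 downstream site, chr17:71177816-71178016: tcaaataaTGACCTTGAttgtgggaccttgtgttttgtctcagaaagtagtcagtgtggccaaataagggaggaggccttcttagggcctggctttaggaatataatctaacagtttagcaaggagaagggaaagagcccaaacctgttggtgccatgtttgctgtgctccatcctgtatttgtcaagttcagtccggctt
Tgif1 upstream site, chr17:71215938-71216138: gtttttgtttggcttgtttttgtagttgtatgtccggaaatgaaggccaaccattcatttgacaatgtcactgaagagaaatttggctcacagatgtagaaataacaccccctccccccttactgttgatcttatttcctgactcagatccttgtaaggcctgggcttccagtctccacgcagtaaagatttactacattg
Foxh1 first exon, coding part, chr15:76500173-76500301: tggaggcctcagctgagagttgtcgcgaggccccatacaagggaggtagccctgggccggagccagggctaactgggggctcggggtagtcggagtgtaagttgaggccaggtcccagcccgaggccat

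Composite matches were present in 3 of these windows. Read on the strand of the match, they are shown here to compare them.
Skil, 3 mismatches, 33 bp from the centre: TTTTGTTATGCAAAC
Id3, 3 mismatches, 26 bp from the centre: CATTATTAAGCTAAT
Inhba, 2 mismatches, 20 bp from the centre: AATTGTTATGCAATT
The match is on the minus strand at Skil and on the plus strand at Id3 and Inhba. A composite with up to 3 mismatches was found in 28.7% of the windows of all 5515 peaks, so such a match is common in this list. The site downstream of Inhbb held the exact octamer on the minus strand, 43 bp from the centre. The site downstream of Tgif1 held an ESRRB element, which the orphan nuclear receptor ESRRB binds, 88 bp from its centre. The upstream Inhbb site, the upstream Tgif1 site and the printed part of the Foxh1 site have no capitals because none of these elements was found there.

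In the whole-series list the pathway genes lay within 50 kb of a peak about as often as other genes. Within 10 kb their share was above that of other genes in the whole-series list, both replicate lists and the optimal mm10 list. Among these, its 95% interval lay above the share of other genes only in the replicate 1 list, from 4 genes. A gene was counted when any of its annotated transcription start sites (TSSs) lay within the window of a peak centre. Within 50 kb there were 10 of 38 members (26.3%, 95% Clopper-Pearson interval 13.4 to 43.1%) against 27.3% of the 22187 other protein-coding genes. The interval covers counting error only. Within 10 kb there were 5 of 38 (13.2%, interval 4.41 to 28.1%), namely Foxh1, Id2, Id3, Skil and Smad7, against 8.65% of other genes. In the replicate 2 list the members were the same 10 and the same 5, against 30.1% and 9.69% of other genes. In the shorter replicate 1 list, 6 members had a peak within 50 kb (15.8%, interval 6.02 to 31.3%, against 8.14% of other genes). A peak lay within 10 kb of 4 (10.5%, interval 2.94 to 24.8%, against 2.27%). This last interval lies above the share of other genes. For whole-series peaks found in both replicate lists, the shares were 15.8% against 7.64% within 50 kb and 10.5% against 2.15% within 10 kb. The 6 were Inhbb, Smad7, Foxh1, Skil, Tgif1 and Id3, and the 4 were Smad7, Foxh1, Skil and Id3. So the count at 50 kb fell from 10 to 6 when replicate 2 was left out, with Tgfb2, Inhba, Smad4 and Id2 lost. The share was then above that of other genes, where over the whole series it was not. Its interval, 6.02 to 31.3%, still takes in the 8.14% of other genes. No test of a gene list was made.

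**Figure D1:**
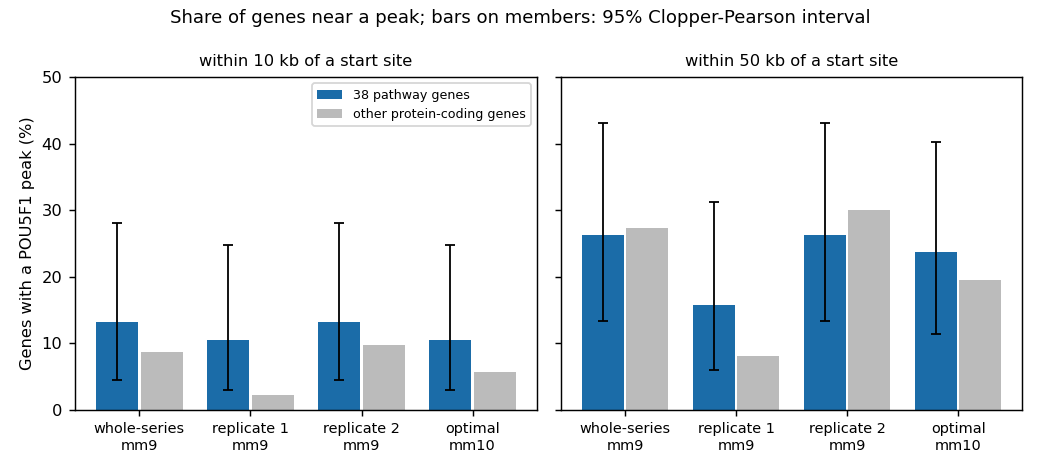
Share of the 38 pathway genes (blue, with the 95% Clopper-Pearson interval) and of other protein-coding genes (grey) with a peak within 10 kb (left) or 50 kb (right) of a start site, in percent, for 4 deposited lists. Over the whole series at 50 kb the shares are 26.3% and 27.3%, and in the replicate 1 list at 10 kb they are 10.5% and 2.27%.

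The median distance from a member to its nearest whole-series peak was 102 kb, against 126 kb for other genes, and ranged from 0.105 kb at Foxh1 to 706 kb at Bmp2. Both sets had a median of 2 annotated TSSs. By pathway step, a peak lay within 50 kb of 3 of 4 nuclear partners and co-repressors, 2 of 4 Id genes, 1 of 2 inhibitory SMADs, 3 of 9 ligands and 1 of 6 receptor-regulated and common SMADs. It lay near 0 of 9 receptors, 0 of 2 extracellular antagonists and 0 of 2 ubiquitin ligases. Steps this small leave wide intervals: 19.4 to 99.4% for the nuclear partners and up to 33.6% for the receptors, which takes in the 27.3% of other genes. In the plot of nearest peaks, Foxh1, Skil and Tgif1 of the nuclear partners and Id2 and Id3 of the Id genes lie left of 50 kb, while Ski, Id1, Id4 and all 9 receptors lie beyond it.

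**Figure D2:**
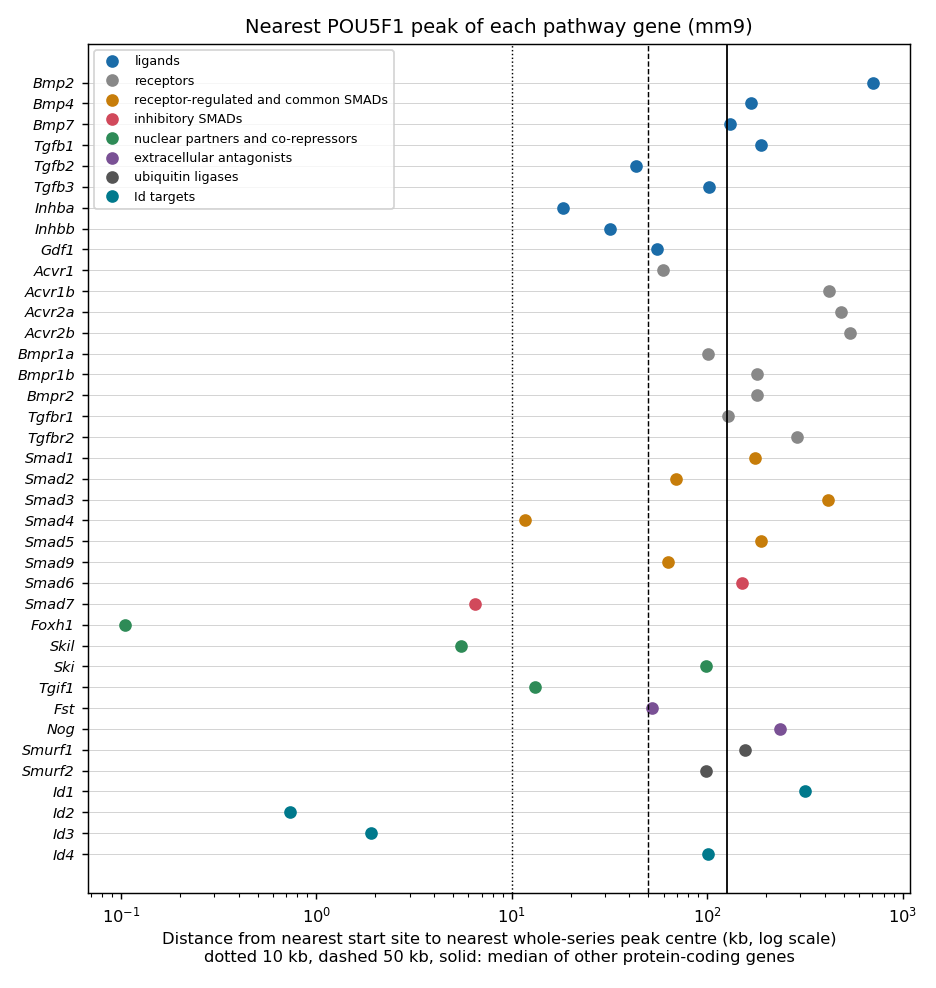
Distance in kb, on a log axis, from each of the 38 genes to its nearest whole-series peak, with colours for the pathway step, dotted and dashed lines at 10 and 50 kb, and a solid line at the median of other protein-coding genes (126 kb). Of the 10 genes left of the dashed line, 5 are also left of the dotted one, and the receptors start at 59.3 kb.

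The nuclear partners and co-repressors held the strongest site. Skil encodes SnoN, a co-repressor that binds SMAD complexes and is itself a target of the pathway. Its peak at chr3:30988181-30988722, 5.53 kb upstream of a Skil TSS and between genes, had a signal of 18.21 over the whole series, 13.69 in replicate 1 and 34.01 in replicate 2. It ranked 40 of 5515, 54 of 1330 and 34 of 6324, so it stood near the top of each list. Skil had 2 more peaks between 50 and 100 kb, both inside Prkci and nearest to it, with signals of 7.34 and 3.97. The related co-repressor gene Ski had none within 50 kb, and its nearest, of signal 5.87, lay 98.2 kb away inside Prkcz.

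Foxh1 encodes a forkhead factor that brings SMAD2 and SMAD3 to NODAL and activin targets. Its peak at chr15:76499955-76500591 was centred 105 bp downstream of the TSS and covered the first exon, coding sequence included. The signal was 9.40 over the whole series (rank 494), 7.47 in replicate 1 (rank 497) and 15.12 in replicate 2 (rank 601), where a second, separate peak also overlapped it. Only the Id2 peak and this one lay at a member's own promoter on mm9, taken as within 1 kb of a TSS. The optimal mm10 peak at Foxh1 lay 1.71 kb downstream of the RefSeq gene start, beyond that limit. That start comes from another annotation and positions were not converted between builds, so this does not show that the peak lies elsewhere.

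Tgif1 encodes a homeodomain co-repressor of SMAD2 and SMAD3. It was flanked by a pair of peaks of nearly equal signal, both nearest to Tgif1. The upstream one, chr17:71215729-71216347, lay 13.2 kb away with a signal of 7.94 over the whole series (rank 871) and 12.41 in replicate 2, and overlapped no replicate 1 peak. The downstream one, chr17:71177477-71178354, lay 17.8 kb away with signals of 7.93 (rank 880), 6.84 in replicate 1 and 13.60 in replicate 2, and at 878 bp it was the widest peak near a member. A SOX site, CATTGTT, lay 99 bp from the centre of the upstream peak, at the edge of the searched window, and a KLF site, GGGTGTGGC, lay 154 bp from it. Tgif1 was the nearest gene of 4 peaks, the others being 73.5 and 111 kb away with signals of 5.49 and 5.58. The peak at 73.5 kb lay inside an intron of Dlgap1.

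**Figure D3:**
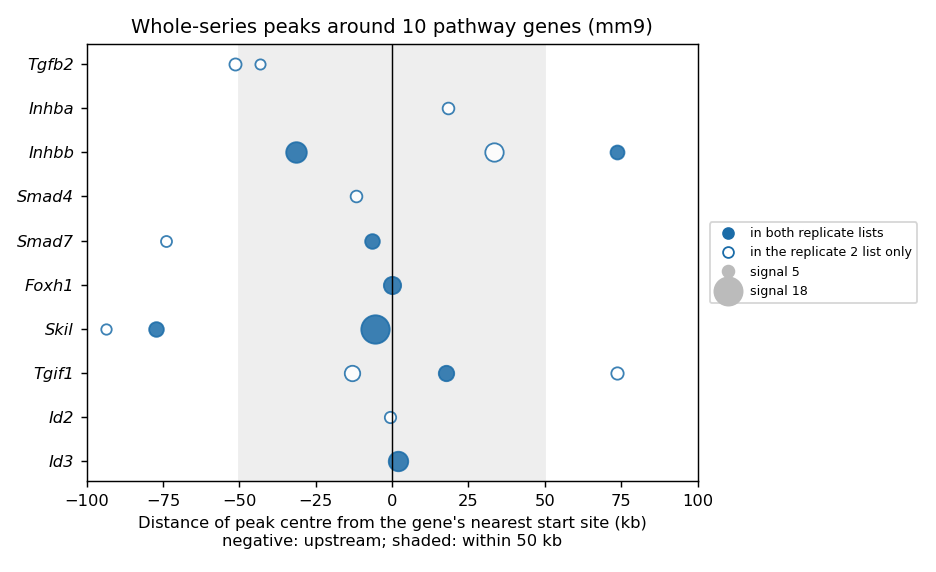
Whole-series peaks around the 10 genes with a peak within 50 kb (shaded), by distance in kb from the nearest start site of the gene, negative upstream; circle size grows with signal, filled circles are in both replicate lists and open ones in that of replicate 2 only. The largest circle is the Skil peak of 18.21 at 5.53 kb upstream, and Inhbb and Tgif1 have a peak on each side.

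Among the Id genes, which encode helix-loop-helix proteins that sequester differentiation factors and are induced by BMP signalling, Id3 and Id2 had a peak near their TSS and Id1 and Id4 did not. The Id3 peak, chr4:135702556-135703037, lay 1.91 kb downstream of a TSS, beyond the annotated end of the gene. Its signal was 11.16 over the whole series (rank 260), 7.47 in replicate 1 (rank 479) and 18.89 in replicate 2 (rank 267). The Id2 peak, chr12:25781495-25781889, lay 735 bp upstream of the TSS and was weak, with a signal of 4.70 (rank 3887) and of 7.56 in replicate 2 (rank 4200), and replicate 1 had none there. On mm10 the nearest optimal peak was 687 kb from Id2, so the whole-series Id2 peak had no counterpart in that list. Id1 was 316 kb from its nearest peak. Id4 was 101 kb from its own, which had a signal of 6.46 and was nearest to Id4.

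Of the SMAD genes, Smad7 and Smad4 had a peak within 50 kb. Smad7 encodes an inhibitory SMAD that blocks the receptors and is induced by the pathway. Its peak at chr18:75520485-75520893, 6.49 kb upstream, had a signal of 7.33 over the whole series (rank 1205), 6.99 in replicate 1 (rank 655) and 9.01 in replicate 2 (rank 3061). In replicate 1 it stood just above the list's median signal of 6.84, and in replicate 2 just above 8.32. Smad4 encodes the common SMAD of all branches, and its peak, 11.7 kb upstream at chr18:73874971-73875362, had a signal of 4.99 (rank 3405) and of 7.56 in replicate 2, with none in replicate 1. That is below the whole-series median of 5.58. The signal transducers of the TGF-beta and activin branch, Smad2 and Smad3, were 69.2 and 415 kb from a peak. Those of the BMP branch, Smad1, Smad5 and Smad9, were 175, 188 and 63.2 kb away, and the inhibitory Smad6 151 kb.

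Among the ligands, the activin subunit genes Inhba and Inhbb lay closest to a peak, at 18.2 and 31.6 kb, and Bmp2 lay farthest. Inhbb, which encodes the beta B subunit of activin and inhibin, had a peak on each side. The upstream one, chr1:121350222-121350674, 31.6 kb away, had a signal of 12.04 over the whole series (rank 201), 9.33 in replicate 1 (rank 213) and 21.16 in replicate 2 (rank 176), but its nearest gene was Ralb, 24208 bp away. The downstream one, chr1:121285216-121285598, 33.4 kb away, had signals of 10.28 (rank 379) and 18.89 in replicate 2 (rank 291), and replicate 1 had none. A further peak 73.5 kb downstream, of signal 6.75, was in both replicate lists.

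Inhba, which encodes the beta A subunit, had 1 peak at chr13:16124373-16124675, 18.2 kb downstream. This is the site with the closest composite match, and its signal was low: 4.99 over the whole series (rank 3502) and 8.31 in replicate 2 (rank 3529), with none in replicate 1. The Tgfb2 peak, chr1:188573104-188573351, 43.4 kb upstream, was the weakest near a member at 3.82 (rank 5357) and 6.80 in replicate 2. It lay in the promoter of Rrp15, 9 bp from a TSS of that gene, and so was counted for Tgfb2 by distance only. A stronger peak, of signal 9.36 and in both replicate lists, had Tgfb2 as its nearest gene at 124 kb. The other ligand genes lay beyond 50 kb: Gdf1 at 55.3 kb, Tgfb3 at 102 kb, Bmp7 at 131 kb, Bmp4 at 167 kb, Tgfb1 at 188 kb and Bmp2 at 706 kb.

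**Figure D4:**
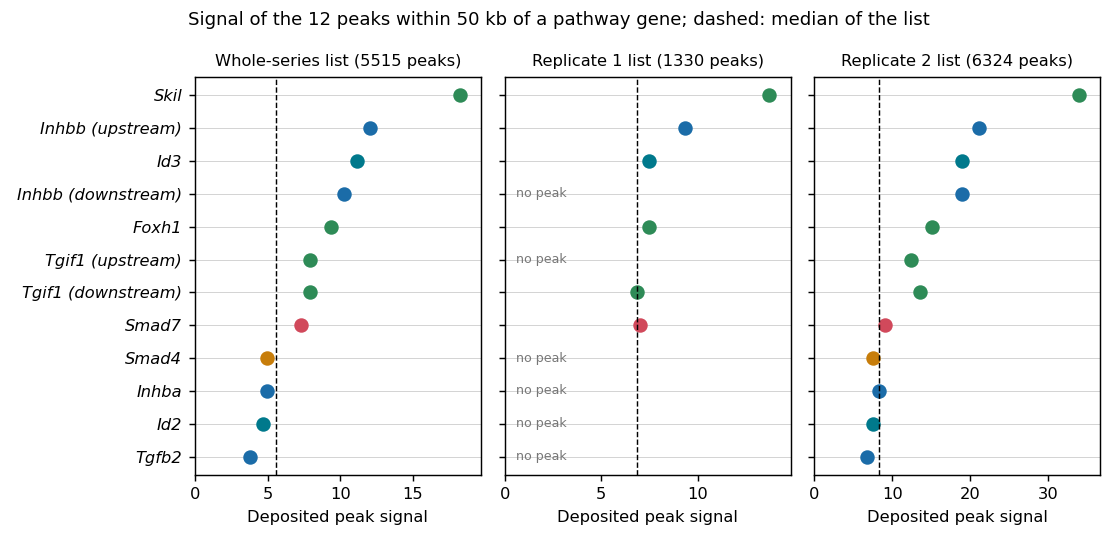
Deposited signal of the 12 peaks within 50 kb of a pathway gene in the whole-series, replicate 1 and replicate 2 lists, with each list's median as a dashed line and colours for the pathway step. Skil is highest in all 3 panels at 18.21, 13.69 and 34.01, and 6 of the 12 have no peak in replicate 1.

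No receptor gene had a peak within 50 kb in any of the mm9 lists or in the optimal mm10 list. The type I receptor genes lay at 59.3 kb (Acvr1), 100 kb (Bmpr1a), 127 kb (Tgfbr1), 180 kb (Bmpr1b) and 420 kb (Acvr1b). Of the type II receptor genes, Bmpr2 lay at 179 kb, Tgfbr2 at 287 kb, Acvr2a at 481 kb and Acvr2b at 539 kb. In the relaxed mm10 list of the pooled replicates, which holds 300000 entries of peaks and background, the best-ranked entry within 10 kb of a receptor gene start ranked from 14542 (Acvr1b) to 266591 (Tgfbr1), with a median of 69578. For other protein-coding genes with such an entry the median was 42251, and for the 5 members with a whole-series mm9 peak within 10 kb the ranks were 77 (Skil), 230 (Id3), 556 (Foxh1), 2711 (Smad7) and 48980 (Id2). In the relaxed list of replicate 1 the medians of receptors and other genes were 81484 and 49703. For replicate 2 they were 46539 and 42631, so the gap seen in the pooled list was small there. Only genes with an entry count in these medians. In the pooled list these were 9 receptors and 17966 of 20261 other genes. In each replicate list they were 8 receptors, with 18110 other genes for replicate 1 and 18031 for replicate 2. Fst and Nog, which encode follistatin, an activin antagonist, and noggin, a BMP antagonist, were 52.0 and 234 kb from a peak. The ubiquitin ligase genes Smurf1 and Smurf2 were 157 and 99.1 kb away. At 50 kb the nearest members on either side of the limit were Tgfb2 at 43.4 kb and Fst at 52.0 kb.

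All 12 peaks near a member overlapped a replicate 2 peak, as did 86.7% of all whole-series peaks. A replicate 1 peak was overlapped by 6 of the 12 (95% Clopper-Pearson interval 21.1 to 78.9%), and by 22.7% of all peaks, a share that the interval takes in. Among the 5 within 10 kb, 4 were in both replicate lists. The median signal was 7.94, from 3.82 to 18.2, against 5.58 for all 5515. The binomial interval of that median, 4.99 to 11.16, takes in the value for all peaks. Of the 12, 9 lay between genes and 3 in promoters, those of Foxh1, Id2 and Rrp15, against 53.3% and 8.25% of all peaks. None was in an intron, where 35.5% of all peaks lay. The 12 were picked for lying within 50 kb of a TSS and all 5515 were not, so a higher promoter share is partly built in. Peaks within 50 kb of other genes were not placed for comparison, so nothing follows about the members from these shares.

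The share of these peaks with a known POU element was below that of the whole list, within counting error. A composite with up to 2 mismatches, an octamer, or a MORE or PORE element (POU dimer sites, up to 1 and 2 mismatches) was found in 2 of 12 windows (16.7%, 95% interval 2.09 to 48.4%) against 22.0% of all peaks. The 2 are the Inhba and downstream Inhbb sites shown above. The 5 peaks within 10 kb of a member held none. The octamer with 1 mismatch was found in 6 of 12 windows against 53.7% of all. Elements of the pathway itself were absent from the 12 windows: the FOXH1 sites AATCCACA and AATACACA, found in 3.17% of all peaks, the palindromic SMAD element GTCTAGAC, found in 0.218%, and the BMP SMAD element GGCGCC, found in 1.65%. Both strands were searched for each. With 12 windows, a share of up to 26.5% could have given none, so nothing follows about the factors.

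On mm10, where positions were counted from RefSeq gene starts and never converted from mm9, 9 members had an optimal peak within 50 kb (23.7%, interval 11.4 to 40.2%), against 19.5% of 20261 other genes. The same 9 had a whole-series mm9 peak, and Id2 was the tenth. Within 10 kb there were 4 (10.5%, against 5.62%). Of the 11 optimal peaks near these 9 genes, 8 were also in the conservative list. The whole lists hold 3994 optimal and 2676 conservative peaks, so most optimal peaks could have a conservative counterpart. The 3 near members that had none belong to Tgfb2, Inhba and Smad4. In the relaxed replicate lists the Skil peak ranked 125 and 57, the Id3 peak 134 and 263, the upstream Inhbb peak 201 and 150, the downstream Inhbb peak 765 and 431, and the Foxh1 peak 410 and 525, for replicates 1 and 2. The Tgif1 peaks ranked 746 and 797 upstream and 387 and 767 downstream. The downstream Inhbb and upstream Tgif1 sites, absent from the mm9 list of replicate 1, thus had entries in its relaxed list on mm10. At Smad7 the ranks were 1409 and 5869. The Inhba and Smad4 peaks overlapped no relaxed entry of replicate 1 and ranked 1921 and 1811 in replicate 2. The Tgfb2 peak ranked 68401 and 2803 in replicates 1 and 2. An optimal peak was thus not always supported by both replicates.

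Counted the other way, by the protein-coding gene nearest to each peak, 24 whole-series peaks had a member as their nearest gene, and 14 of 38 members (36.8%) were nearest to at least 1, against 17.4% of other genes. The stretch of genome to which a gene's TSSs are nearest differs as well, with a median of 146 kb for members and 45.7 kb for other genes, and its part in this share was not tested. Bmp7, Tgfbr2, Smad2, Id4 and Tgfb2 entered this count through peaks between 69.2 and 287 kb away. Of the 12 peaks within 50 kb, 10 were nearest to the member they were counted for.

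Of 80 other genes of these pathways, 27 had a whole-series peak within 50 kb (33.8%, against 27.3% of protein-coding genes outside the 38 members). By role these were 3 of 20 ligands, 6 of 10 receptors and co-receptors, 8 of 22 extracellular antagonists and modulators, 7 of 18 intracellular regulators and 3 of 10 targets. The ligands were led by Gdf3, a family member that can also inhibit BMPs (12.33, 1.48 kb away), and Nodal (9.98, 1.91 kb). Among receptors and co-receptors Rgma, a BMP co-receptor, had the strongest peak (10.87, 9.26 kb), followed by Hfe2 (7.93, 36.4 kb). The only kinase receptor gene among these 6 was Acvr1c, which encodes the NODAL receptor ALK7 (5.29, 15.8 kb, replicate 2 list only). Acvr1c was singled out after its value was seen. Among extracellular modulators the highest signals were counted for Chrdl2 (27.31), whose peak was nearest to Rnf169, and Lefty1 (19.38). Intracellular regulators were led by Hipk2 (11.22, 12.7 kb) and Skor1, a relative of Ski and Skil (9.10, 0.200 kb). For targets the leading genes were Dlx5 at 5.87, from a peak nearest to Dlx6, and Ctgf and Gsc, both at 4.99. The Gsc peak was in both replicate lists and the Ctgf peak in that of replicate 2 only.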

How the data were processed

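POU5F1 ChIP-seq peak lists from 2 biological replicates of E14TG2a.4 cells were analysed. Per the file headers of the deposited descriptions, the authors gave broadPeak lists on mm9 and IDR lists on mm10; aligner, caller, thresholds and the way replicates were combined are not given in the sources used here. The deposited signal has no stated scale. The authors' mm9 lists give a −log10 p-value and a q-value per peak. The deposited mm10 lists give a −log10 q, and only the optimal and conservative ones also an IDR score. None of these was tested. The lists give no read counts, so depth is unknown.

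Distances were taken from the peak centre (mm10: summit) to the TSSs of the NCBIM37 (mm9) GENCODE M1 annotation, or on mm10 to the outermost RefSeq gene start (GRCm38), with the strand taken from the mm9 annotation. Overlap needed 1 bp. Motifs were searched in 201 bp windows with Python 3.11.15, numpy 2.4.6 and pysam 0.24.0, and intervals came from scipy 1.17.1. Distance and motif code was tested on simulated data. The members and lists were chosen with earlier results of these data known. Every member with a peak within 50 kb was named with its strongest peak, the others with the distance of the nearest. For other pathway genes up to 2 per role with the highest signal were named, and a gene tied with them. The design has 1 group, so no test was made. Alternatives covered thresholds, windows, start sites, replicate lists, overlap, motif settings and both mm10 lists; RefSeq gene bodies were added after seeing the data. No sequence of chromosome 18 is printed.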

Additional observations from a re-analysis of the deposited data

How the results depend on the processing

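The share of members within 50 kb of a peak stayed within the wide interval of its main value (13.4 to 43.1%) under 13 of 14 alternatives. It moved to 44.7% with a window of 100 kb, where other genes had 43.3%. The relation to other genes varied more. It was 15.8% against 7.64% for peaks in both replicate lists and 26.3% against 30.1% in the replicate 2 list. By nearest TSS it was 36.8% against 17.4%. That alternative sets no distance limit, so it is not a share within 50 kb. The stretch nearest to a gene's TSSs also differs, with medians of 146 kb for members and 45.7 kb for other genes. From 1 replicate list alone the members' share was 15.8 to 26.3%. The share within 10 kb stayed within its interval under all 12 alternatives run, and was 10.5 to 13.2% from 1 replicate list. With −log10 p of at least 10, the shares of members and other genes were 21.1% and 16.6% within 50 kb and 13.2% and 4.93% within 10 kb. Peaks with a replicate 1 counterpart numbered 4 of 12 in place of 6 under both stricter overlap rules. Over all peaks the share was 16.4% with overlap of at least 50% of both peaks and 21.5% with centres within 100 bp. The share with a POU motif was 50% when the octamer was allowed 1 mismatch (54.9% of all peaks) and 0% for the 5 peaks within 10 kb. Median signal was 7.47 in the replicate 1 list, whose own median was 6.84, and 12.4 in the replicate 2 list, whose own was 8.32. The signal scale of these lists is not stated. RefSeq gene bodies on mm10 added Fst and still lacked Id2. No paired analysis was possible because the series has 1 group. Read depth is unknown, so a missing peak, in replicate 1 above all, does not show that binding was absent.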
